A study of Rattus norvegicus and Mus musculus with 61 samples.

Results

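Expression of 9 genes from 2 growth factor systems was followed in cortex after traumatic brain injury. They were Tgfb1, Tgfb2, Tgfbr2 and Inhba of the transforming growth factor beta (TGF-beta) family, and Igf1, Igf2, Igfbp2, Igfbp3 and Igfbp5 of the insulin-like growth factor (IGF) system. The genes were picked with earlier results of these data known, and their probe sets were then found by gene symbol in the annotation. On the mouse array 11 of 12422 probe sets carried a member symbol alone, for 8 of 8251 genes, and on the rat array 22 of 8740 probe sets did, for 8 of 4736 genes. In mouse, 8 of the 11 probe sets and 7 genes passed the filter on low intensity, and in rat 19 of the 22 probe sets and all 8 genes did. The mouse Tgfbr2 probe set was dim on every array (intensity at most 78.4) and was not tested. A mouse probe set annotated to both Tmem119 and Igfbp5 was not assigned, so Igfbp5 has rat values only, and Tgfbr2 has no rat value here.

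Male C57BL/6 mice of 20 to 25 g, under isoflurane and oxygen, received a moderate controlled cortical impact at 6 m/s with 1.5 mm deformation, or sham surgery. Each mouse sample pooled 4 mm disks of parieto-occipital cortex from 3 animals. Injury groups held 3 arrays and sham groups 2 arrays at 4, 8, 24 and 72 h, with 2 naive arrays, 22 arrays in all. Male Sprague-Dawley rats of 400 ± 25 g, under sodium pentobarbital, received fluid percussion at 2.5 atm or sham surgery, and each 7 mm disk came from 1 animal. Rat groups held 5 injury and 4 sham arrays at 30 min, 3 injury and 4 sham arrays at 4 h, and 3 injury and 2 sham arrays at 8, 24 and 72 h and 21 d, with 3 naive arrays, 39 arrays in all. Sham animals carried the anaesthesia and surgery without the injury. The age of the animals is not given in the sources used here.

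TGF-beta ligands are secreted in a latent form and, once released, bind paired type II and type I receptors, of which Tgfbr2 encodes the type II receptor. The receptors phosphorylate SMAD proteins, which enter the nucleus and act on genes of extracellular matrix, growth arrest and immune restraint. Inhba encodes the beta A subunit that pairs into activin A, a related ligand that uses its own type II receptors and can be induced in neurons by activity or damage. The ligands Igf1 and Igf2 act mainly through the IGF1 receptor to favour growth and survival. Binding proteins such as Igfbp2, Igfbp3 and Igfbp5 hold these ligands outside the cell and can limit, carry or release them.

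The promoters of the members that were called in mouse are shown to give the sequence at each start site. They are rat sequences of 300 bases, from 250 before to 50 after the start, from RefSeq on the GRCr8 build, since no mouse sequence was used here. Capitals mark matches, on either strand, to a short list of promoter letters: the TATA box TATAAA, its variant TATATA, the GC box GGGCGG, the AP-1 site TGANTCA, the cyclic AMP response element TGACGTCA and the SMAD element GTCTAGAC.
Tgfb1 (chr1:90324062-90324361, strand +): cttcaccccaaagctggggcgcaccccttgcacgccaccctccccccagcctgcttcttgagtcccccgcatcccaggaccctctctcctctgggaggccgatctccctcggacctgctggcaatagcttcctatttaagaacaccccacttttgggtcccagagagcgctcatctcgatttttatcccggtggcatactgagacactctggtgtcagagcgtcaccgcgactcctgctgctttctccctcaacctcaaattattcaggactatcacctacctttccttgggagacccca
Inhba (chr17:53804459-53804758, strand -): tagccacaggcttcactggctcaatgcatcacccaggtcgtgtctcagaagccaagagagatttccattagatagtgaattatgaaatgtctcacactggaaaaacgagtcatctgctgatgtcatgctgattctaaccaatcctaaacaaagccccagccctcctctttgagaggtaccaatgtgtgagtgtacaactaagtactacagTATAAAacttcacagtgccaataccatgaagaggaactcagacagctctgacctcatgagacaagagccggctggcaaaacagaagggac
Igfbp2 (chr9:81864561-81864860, strand +): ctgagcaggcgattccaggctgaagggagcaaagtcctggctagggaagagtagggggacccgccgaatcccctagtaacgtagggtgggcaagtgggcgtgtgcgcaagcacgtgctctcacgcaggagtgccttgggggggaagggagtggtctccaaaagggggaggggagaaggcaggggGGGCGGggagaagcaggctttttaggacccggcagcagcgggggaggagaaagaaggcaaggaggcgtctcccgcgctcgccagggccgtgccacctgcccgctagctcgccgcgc
Igfbp3 (chr14:86277895-86278194, strand -): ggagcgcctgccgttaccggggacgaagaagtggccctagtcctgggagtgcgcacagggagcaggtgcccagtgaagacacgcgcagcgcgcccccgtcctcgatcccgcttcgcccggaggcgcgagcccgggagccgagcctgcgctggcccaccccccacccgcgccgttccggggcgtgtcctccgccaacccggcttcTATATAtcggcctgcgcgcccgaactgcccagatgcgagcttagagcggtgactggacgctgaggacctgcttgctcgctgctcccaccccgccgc
Inhba held TATAAA at position -40 from the start site, Igfbp3 held TATATA at position -46 and Igfbp2 held GGGCGG at position -66. The Tgfb1 window held none of the 6 motifs. Of 33469 rat promoters of the same length, 14.2% held TATAAA, 6.15% TATATA, 33.1% GGGCGG, 7.33% TGANTCA, 1.83% TGACGTCA and 0.197% GTCTAGAC. No match overlapped another in these 4 windows. A match describes the letters of the window, and binding was not measured.

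Every value below is an intensity on the authors' deposited linear scale, 1 per probe set and array, and levels are compared between samples for the same probe set only. A log2 difference is injury minus sham, ± its standard error from limma, after values under a floor (24.1 in mouse, 32.1 in rat) were set to that floor. Called means an adjusted p (Benjamini-Hochberg, over all genes tested) below 0.05. The probe set with the highest mean stands for a gene with several. The mouse sham samples of 1 time share a number in their titles, so they may be repeat preparations, and the p-values rest on array-to-array spread alone.

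All mouse arrays expressed the neuronal marker Snap25 at 11273 to 26822. The mouse sham 4 h arrays alone were rich in pituitary markers (summed intensity of 5 genes 18210 and 20462, at most 2582 on any other mouse array). In rat, 4 arrays stood apart with a median correlation below 0.8 to the other rat arrays: a pair at 4 h (sham replicates 3 and 4, 0.662 and 0.537) and a pair at 30 min (0.755 on injury replicate 5 and 0.785 on sham replicate 3). Markers varied widely within the rat sham 4 h group, where Snap25 ran from 446 to 10495. The summed pituitary markers ran from 770 to 5358 there, and the summed astrocyte markers from 15071 to 65509. The part of this in the rat 4 h differences was not tested. The 5 rat arrays at 24 h, injury and sham alike, also stood apart: 63 genes were higher on all 5 than on each of the other 34 rat arrays. Rat injury 72 h replicate 2 correlated best with a 24 h array (0.931) and shared 128 of 157 genes that set the 24 h arrays above the other 33. The titles of the 24 h samples carry an extra letter f whose meaning is not given.

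In mouse, Tgfb1, Igfbp3 and Inhba were higher in injured cortex at 24 and 72 h, and Igfbp2 at 72 h. The impact contrasts called 0 of 7 members at 4 h and at 8 h, 3 at 24 h and 4 at 72 h. Each call was a rise. Across all 6355 genes tested, 0.677% rose at 4 h, 4.91% at 8 h, 6.20% at 24 h and 9.85% at 72 h, and 0.189%, 3.27%, 4.50% and 5.68% fell at these times. The level of the filter was 193, and Tgfb1 exceeded it on injury arrays at 24 and 72 h alone. No sham or naive array read above 193 for the Igfbp3 probe set that stands for the gene. Both genes were thus tested through the injured group, and all members were picked with earlier results known. Counts of members beside shares of all genes, here and below, are therefore a description and no independent test. At an unadjusted p below 0.05, limma gave 0 members at 4 h and 0 at 8 h. With the 2 sham arrays of a time averaged into 1 sample, 4 of the 7 calls held: Tgfb1 at 72 h, Igfbp2 at 72 h and Igfbp3 at both times.

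Tgfb1 encodes the main TGF-beta ligand of injured tissue. At 4 h its intensity was 27.3, 39.7 and 39.1 in injured cortex, against 35.8 and 38.6 in sham cortex. At 8 h it was 46.9, 31.9 and 37.9 after injury, against 18.9 and 20.4 after sham surgery, both below the floor. The groups overlapped at 4 h and did not at 8 h, at levels near the floor, where every injury array was above sham for 17.8% of all genes.

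At 24 h the 3 injury arrays read 87.7, 246 and 675 for Tgfb1, against 21.8 and 27.2 on the sham arrays. By 72 h they were 508, 408 and 414, against 28.0 and 18.3, with naive cortex at 28.2 and 23.9. Every injury array was above every sham array at both times, and the injury arrays varied more at 24 h than at 72 h. Tgfb1 rose by a log2 difference of 3.25 ± 0.68 at 24 h (limma adjusted p = 0.00364, 3 injury and 2 sham arrays). The 72 h difference was 4.09 ± 0.68 (95% interval 2.66 to 5.52, limma adjusted p = 0.000338). The size depends on the floor, since 1 sham array lay below it at each time: with a floor at the 25th percentile the differences were 1.63 and 2.48, both still called. The 24 h call did not hold with averaged sham arrays (adjusted p = 0.0628) or with only the compared groups in the fit (0.0590).

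Inhba, the activin beta A gene, was high at 4 h in both groups. Injured cortex had 1787, 730 and 644, against 928 and 1102 in sham cortex and 399 and 364 in naive cortex. The sham 4 h arrays are those with the pituitary markers, whose part in this level was not tested. The sham 4 h difference from naive was 1.41 ± 0.58 (limma adjusted p = 0.454, against 0.551% of all genes called), a comparison added after these values were seen.

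At 8 h Inhba was 576, 228 and 302 after injury, against 228 and 264 after sham surgery, and the groups overlapped. At 24 h it was 1405, 524 and 2375 in injured cortex, against 145 and 410 in sham cortex. At 72 h it was 1044, 845 and 990, against 349 and 272. The injury arrays were all above the sham arrays at 24 and 72 h and not before. Inhba rose at 24 h by 2.31 ± 0.53 (limma adjusted p = 0.00682) and at 72 h by 1.64 ± 0.53 (limma adjusted p = 0.0401). The 24 h call was lost without sham replicate 1c (1.56, adjusted p = 0.161), with averaged sham arrays (0.0671) and with only the compared groups (0.0697). The 72 h call was lost when any 1 of the 5 compared arrays was left out (1.46 to 1.82, adjusted p = 0.0598 to 0.236), and with no filter (0.0798), no trend (0.0629), the title letter as a block (0.0617) or averaged sham arrays (0.169).

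Tgfb2, a second TGF-beta ligand, was between 139 and 309 on the injury arrays, against 145 and 261 at the ends of the sham range. Its log2 differences were 0.08 at 4 h, -0.31 at 8 h, 0.15 at 24 h and 0.00 at 72 h, and no time was called. The 95% interval at 72 h ran from -0.89 to 0.90, so changes within that range are not excluded by these arrays. Tgfbr2, the type II receptor, read 4.71 to 44.4 in injured cortex and 8.57 to 78.4 in sham cortex, and its probe set is too dim to compare.

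**Figure D1:**
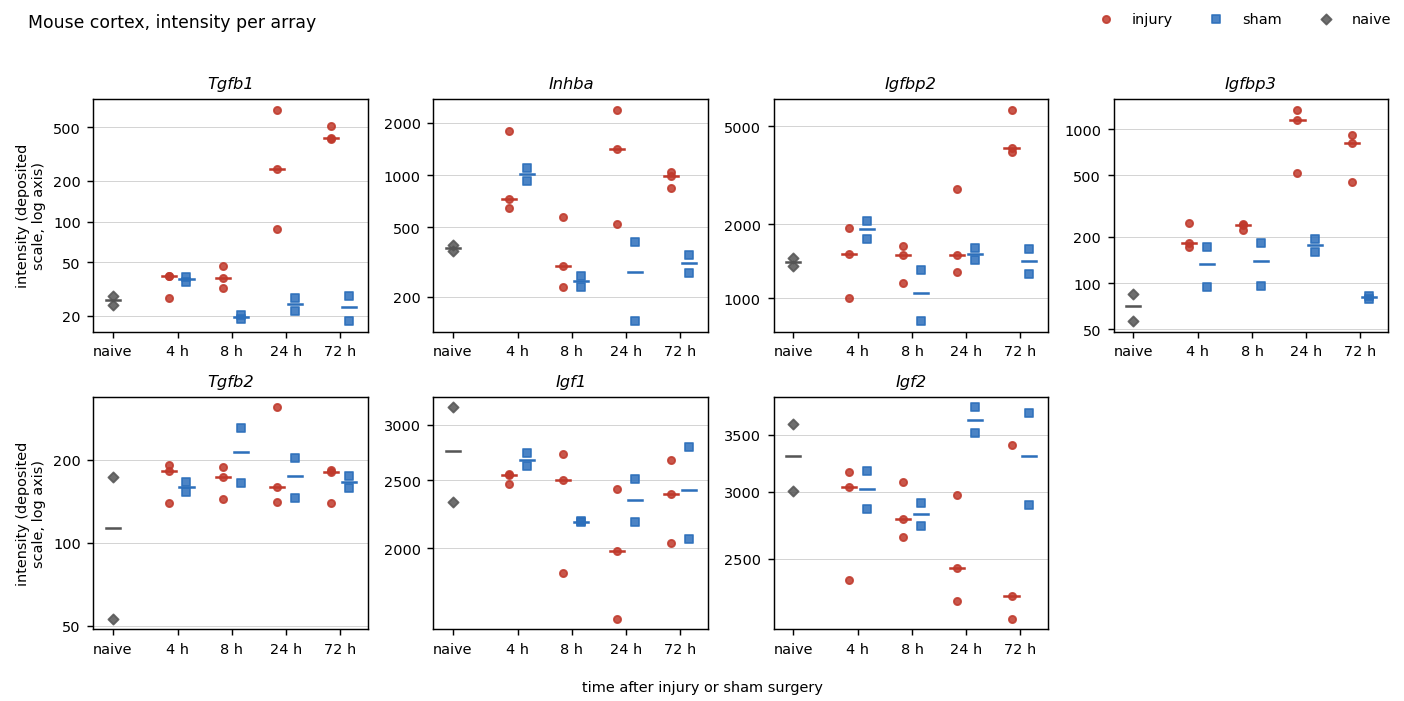
Deposited intensity of the 7 tested mouse members (log axis) in naive cortex and at 4, 8, 24 and 72 h after injury (circles, left) or sham surgery (squares, right). Each point is 1 array and each bar a group median. Tgfb1 and Igfbp3 separate from sham at 24 and 72 h and Igfbp2 at 72 h, while Igf1 and Tgfb2 overlap at both of these times.

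Igfbp3, the main carrier of circulating IGFs, has a pair of mouse probe sets. The brighter one read 184, 245 and 172 at 4 h in injured cortex, against 171 and 95 in sham cortex. At 8 h it was 223, 239 and 242, against 95.9 and 182. These injury arrays were above both sham arrays at each time, as they were for 18.0% of all genes at 4 h, and neither time was called for this probe set. At 8 h the Igfbp3 difference passed against all uninjured arrays as 1 group (1.08, adjusted p = 0.0376) or with its probe sets averaged (1.34, adjusted p = 0.0477).

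At 24 h the same probe set gave 1142, 518 and 1337 for Igfbp3 after injury, against 160 and 193 after sham surgery. At 72 h it gave 807, 455 and 912, against 78.6 and 82.9, and naive cortex had 56.7 and 85. The lowest injury array was above the highest sham array by a wide margin at both times. Igfbp3 rose by 2.39 ± 0.40 at 24 h (limma adjusted p = 0.000519) and by 3.1 ± 0.40 at 72 h (95% interval 2.27 to 3.94, limma adjusted p = 2.17e-05). Both calls held under all 10 alternatives and with each of the 5 compared arrays left out. The second probe set gave 2.4 ± 0.55 at 24 h and 3.52 ± 0.55 at 72 h, both called. Tested as its own feature it was also called at 8 h (1.85 ± 0.55, adjusted p = 0.0425, against 7.77% of all probe sets called), with 252, 155 and 264 in injured cortex, against 58.7 and 61.7 in sham cortex.

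Igfbp2, the abundant IGF binding protein of developing brain and reactive glia, was called at 72 h and at no earlier time. At 4 h it was 1008, 1510 and 1932 in injured cortex, against 2068 and 1750 in sham cortex. At 24 h it was 1277, 2788 and 1499, against 1600 and 1429, and the groups overlapped at both times. At 72 h the injury arrays read 3933, 4076 and 5836, against 1587 and 1253 on the sham arrays and 1350 and 1461 on the naive arrays. All 3 injury arrays at 72 h were above every other mouse array for Igfbp2. The 72 h difference was 1.69 ± 0.30 (95% interval 1.06 to 2.31, limma adjusted p = 0.000574), and it held under all 10 alternatives and with each compared array left out (1.51 to 1.86).

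Neither IGF ligand was called in mouse. Igf1 was 1586 to 2724 across the 12 injury arrays, against 2059 to 2786 on the 8 sham arrays and 3177 and 2330 in naive cortex. Its differences were -0.08, 0.09, -0.25 and -0.03 from 4 to 72 h, none called, with a 95% interval of -0.44 to 0.38 at 72 h. Igf2 was 2228, 2973 and 2441 at 24 h after injury, against 3772 and 3514 after sham surgery, so every injury array was below sham, as for 19.7% of all genes. That difference was -0.53 ± 0.19 and did not pass (limma adjusted p = 0.0853). It passed without injury replicate 2 (-0.64, adjusted p = 0.0411). At 72 h Igf2 was 2260, 3407 and 2126, against 3709 and 2895, a difference of -0.37 ± 0.19 that was called only without injury replicate 2 (-0.58, adjusted p = 0.0318). Ttr, from a list of meningeal, fibroblast and choroid plexus markers, varied between these arrays. It was 548 to 5334 at 24 h after injury, against 4341 to 5986 after sham surgery. At 72 h it was 942 to 4381, against 1258 to 1289. The part of these tissues in the Igf2 values was not tested. The other Igf1 and Igf2 probe sets on the mouse array stayed below the filter.

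Among the 9 members, 4 of the 7 tested in mouse had every injury array above every sham array at 72 h, against 20.5% of all genes tested. At 24 h 3 did, against 17.0% of all genes, with the limits of filter and choice given above. Whole-tissue RNA was measured, so more cells of a type and more RNA per cell cannot be told apart. Microglia and macrophage markers rose too: 2 of 17 at 4 h, 7 at 8 h, 11 at 24 h and 16 at 72 h. Of all genes 0.677%, 4.91%, 6.20% and 9.85% rose at these times, and no member was called at 4 or 8 h. The summed intensity of these markers was 53501 to 68703 at 72 h in injured cortex, against 13640 to 14690 in sham cortex. At 24 h it was 27315 to 31458, against 13523 to 13851, and at 8 h 22471 to 24143, against 13114 to 13610. Csf1r was 3410 to 4249 at 72 h, against 1689 to 1869, and Aif1 was 735 to 825, against 45.8 to 200. At 24 h Csf1r was 1964 to 2030, against 1774 to 1822, and Aif1 was 226 to 355, against 123 to 127. At 8 h Csf1r was below sham (1290 to 1500, against 1732 to 1779). Astrocyte markers rose for 3 of 10 at 24 h, where 1 fell, and for 4 of 10 at 72 h, with Gfap at a difference of 2.76 ± 0.30 and Serpina3n at 3.69 ± 0.25. Their summed intensity at 72 h was 42798 to 44696 in injured cortex, against 24855 to 27341 in sham cortex. Oligodendrocyte markers rose for 3 of 7 at 24 h and 5 of 7 at 72 h (25378 to 29941 at 72 h, against 21044 to 21753). The part of these cell types in the members' rises was not tested.

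The order in time was tested between injury groups. From 4 to 8 h no member was called, and Inhba had the largest difference (-1.47 ± 0.47, adjusted p = 0.106) with all 8 h injury arrays below all 4 h injury arrays (2.55% of all genes were called and 14.5% were below in this way). In the 24 h against 8 h contrast Igfbp3 (1.98 ± 0.36, adjusted p = 0.00818) and Tgfb1 (2.67 ± 0.61, adjusted p = 0.0351) were higher at 24 h, 2 of 7 members against 0.976% of all genes called as rises. Inhba differed by 1.82 ± 0.47 and was not called (adjusted p = 0.0562), although it was without injury 24 h replicate 2 (2.42, adjusted p = 0.00363). The Igfbp3 call was lost without injury 24 h replicate 1 (adjusted p = 0.0557), without injury 24 h replicate 3 (0.0751) or without injury 8 h replicate 2 (0.0598). The Tgfb1 call was lost without any 1 of the 3 injury 8 h arrays (0.0563 to 0.153) or without injury 24 h replicate 3 (0.227). With the title letter as a block neither call held (1.94 ± 0.60, adjusted p = 0.326 for Igfbp3, and 2.61 ± 1.02, adjusted p = 0.445 for Tgfb1). All injury arrays carry the letter b at 8 h and c at 24 h, so letter and time are told apart through sham arrays alone. Nor did either call hold with only the compared groups (0.0543 and 0.209). The Tgfb1 call was also lost with the floor at the 25th percentile (1.63, adjusted p = 0.0735) and with averaged sham arrays (0.0634).

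In the 72 h against 24 h contrast Igfbp2 alone of the 7 was called (1.38 ± 0.27, adjusted p = 0.00589), against 2.68% of all genes called as rises. Tgfb1 and Igfbp3 did not differ between these times beyond their spread (0.85 ± 0.61 and -0.41 ± 0.36). The injury effect itself differed between 72 h and 4 h for Tgfb1 (4.18 ± 0.97, adjusted p = 0.0131), Igfbp3 (2.47 ± 0.57, adjusted p = 0.0124) and Igfbp2 (2.10 ± 0.42, adjusted p = 0.00550). That was 3 of 7 members, against 3.60% of all genes called in that direction. The 4 h effect, here and in the F test below, is taken against the sham arrays that were rich in pituitary markers. Their part in these differences was not tested. All 3 of these calls were lost with averaged sham arrays or with the title letter as a block. At 4 h every injury array carries the letter a, which no sham array carries, so the block cannot separate letter from injury there. Leaving out 1 sham array ended the call for Igfbp3 (4 h replicate 1b, adjusted p = 0.0876) and for Tgfb1 (4 h replicate 1c, 0.0560, or 72 h replicate 1d, 0.0525). An F test over the 4 times called the same 3 genes (adjusted p = 0.0268 for Tgfb1, 0.0237 for Igfbp3 and 0.0267 for Igfbp2), against 4.58% of all genes.

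Sham surgery was compared with naive cortex over the mean of the sham groups. No mouse member was called (0 of 7, against 0.110% of all genes). At an unadjusted p below 0.05 limma gave 2 members, Igfbp3 with 0.84 ± 0.35 (adjusted p = 0.411) and Tgfb2 with 0.87 ± 0.37 (adjusted p = 0.423). The Tgfb2 value turns on 1 of the naive arrays, which read 173 and 53.0. Igfbp3 was 171 and 95 in sham cortex at 4 h, 95.9 and 182 at 8 h and 160 and 193 at 24 h, against 56.7 and 85 in naive cortex. At 72 h the sham arrays lay within the naive range.

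**Figure D2:**
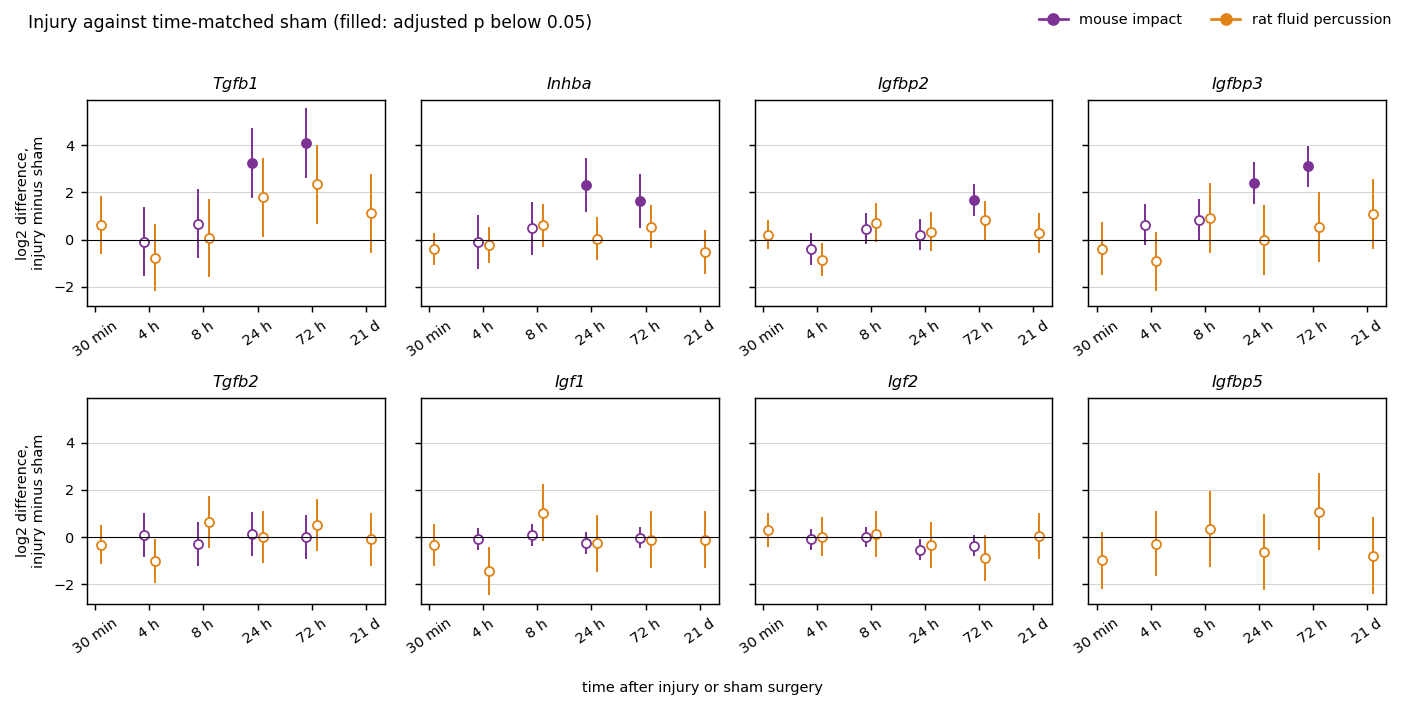
Log2 difference in intensity, injury minus time-matched sham, for each member in mouse and rat by time after injury. Points are limma estimates, lines are 95% intervals, and filled points had an adjusted p below 0.05. Filled points are mouse values at 24 and 72 h, and no rat point is filled.

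The surrounding pathways were followed with gene lists of TGF-beta and IGF signalling, chosen with earlier results of these data known. Of 19 genes that TGF-beta is known to induce, 1 rose at 4 h, 7 at 8 h, 11 at 24 h and 12 at 72 h in injured mouse cortex, and none fell. Of all genes 0.677%, 4.91%, 6.20% and 9.85% rose at these times. Their median log2 difference was 0.22, 0.60, 0.69 and 1.02 over these times, against -0.04 to 0.00 for all genes. Among them were the protease inhibitor gene Timp1 (2.92 ± 0.25 at 8 h, adjusted p = 3.88e-07), the cell cycle inhibitor gene Cdkn1a (2.38 ± 0.22 at 24 h, adjusted p = 8.59e-07) and the actin-binding gene Tagln (2.49 ± 0.29 at 72 h, adjusted p = 6.44e-06). Endothelial and pericyte markers moved beside them, with 4 of 14 rising at 8 h, 5 at 24 h and 7 at 72 h. Of 11 meningeal, fibroblast and choroid plexus markers, 5 rose and 1 fell at 72 h. Their summed intensity at 72 h was lower after injury, at 16647 to 20908, against 21124 to 25166 in sham cortex. Col1a1, Col3a1 and Tagln are on the TGF-beta-induced list as well as on 1 of these marker lists. Thus 2 of the 5 meningeal, fibroblast and choroid plexus markers that rose at 72 h are the same genes. Eng and Dcn, described next, are on marker lists too. The part of these cells, or of TGF-beta itself, in the counts was not tested.

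Of 18 other ligands, latency proteins and antagonists, 1 rose and 1 fell at 8 h, 1 rose and 3 fell at 24 h, and 4 rose and 1 fell at 72 h. Of all genes 4.91%, 6.20% and 9.85% rose and 3.27%, 4.50% and 5.68% fell at these times, so most of these counts lie near the background. The proteoglycan gene Bgn, whose product binds TGF-beta, rose at 72 h (1.99 ± 0.19, adjusted p = 7.27e-07). Its relative Dcn fell at 8 h (-1.21 ± 0.19, adjusted p = 0.000294). Inha, whose product pairs with beta subunits to form inhibin, fell at 24 h (-1.10 ± 0.20, adjusted p = 0.00107). The list median at 72 h was 0.05.

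Among 8 receptors, 2 rose and 1 fell at 8 h, 1 rose and 1 fell at 24 h, and 1 rose and 2 fell at 72 h. Of all genes 4.91%, 6.20% and 9.85% rose and 3.27%, 4.50% and 5.68% fell at these times. In a list this short, counts of 1 lie near the background. The activin type II receptor genes were the ones that fell: Acvr2a at 8 h (-1.46 ± 0.20, adjusted p = 8.35e-05) and Acvr2b at 72 h (-0.69 ± 0.20, adjusted p = 0.0255). The endothelial co-receptor gene Eng rose at 72 h (0.87 ± 0.13, adjusted p = 0.000158). Beside 6.20% and 9.85% of all genes, 3 of 7 SMADs and regulators rose at 24 h and 1 at 72 h. They were the repressor gene Tgif1 (1.98 ± 0.35 at 72 h, adjusted p = 0.000569), the inhibitory SMAD gene Smad7 (0.92 ± 0.27 at 24 h, adjusted p = 0.0345) and Smad1 (0.66 ± 0.20 at 24 h, adjusted p = 0.0389).

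On the IGF side, 1 of 4 other binding proteins and related genes rose, namely Igfbp4, at 8 h (1.72 ± 0.25, adjusted p = 0.000141) and at 24 h. Of all genes 4.91% and 6.20% rose at these times. Of 19 receptor and signalling genes none was called at 4, 8 or 24 h, and 2 rose and 1 fell at 72 h, near the 9.85% and 5.68% of all genes. The adaptor gene Shc1 (1.23 ± 0.27, adjusted p = 0.00341) and the PI3-kinase subunit gene Pik3r1 (0.84 ± 0.24, adjusted p = 0.0202) rose. The transcription factor gene Foxo3 fell (-0.61 ± 0.20, adjusted p = 0.0488).

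The genes most like each mouse member over the 9 group means were taken by Pearson's r, as a description without a test. Tgfb1 was closest to Tagln (r = 0.986), Lgals1 (0.982) and Ifi30 (0.981). Igfbp3 was closest to Apbb1ip (0.979), Wfs1 (0.973) and Ampd3 (0.972). Igfbp2 was closest to the collagen VI genes Col6a2 (0.981) and Col6a1 (0.972), and to the cyclin gene Ccnb2 (0.967). Inhba had no equally close gene (Nup93, 0.890, then Fpgs, 0.874, and Slc66a2, 0.873). The genes share their arrays.

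In rat, no member was called in any of the 6 injury against sham contrasts when 1 probe set stood for each gene. The shares called over all 4091 genes were 0.0244% at 30 min, 4.99% at 4 h, 0.709% at 8 h, 0.269% at 24 h, 2.76% at 72 h and 0% at 21 d. At an unadjusted p below 0.05 limma gave 3 of 8 members at 4 h, 1 at 24 h, 2 at 72 h and 0 at the other times. Sham surgery against naive cortex called 0 of 8 members (0 at an unadjusted p below 0.05, against 0.0244% of all genes called).

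Rat Tgfb1 read 307, 235 and 1129 at 72 h in injured cortex, against 85.5 and 84.7 in sham cortex. At 24 h it was 144, 424 and 536, against 80.2 and 106. All injury arrays were above both sham arrays at 24 and 72 h, as 16.4% and 19.0% of all genes were. The differences were 1.79 ± 0.80 at 24 h (adjusted p = 0.937) and 2.35 ± 0.80 at 72 h (95% interval 0.72 to 3.97, adjusted p = 0.115), so neither was called. The 72 h estimate was 2.79 without injury replicate 2 and 1.66 without injury replicate 3, and without the 4 arrays that stood apart its adjusted p was 0.0489.

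At other times the rat Tgfb1 groups overlapped. Injured cortex at 8 h had 739, 162 and 646, against 449 and 373 in sham cortex, and at 21 d 86.5, 308 and 452, against 97.5 and 115. At 4 h it had 288, 64.4 and 83.3, against 424, 270, 132 and 97.4. At 30 min the 5 injury arrays ran from 72.1 to 283, against 65.5 to 105 on 4 sham arrays. Naive rats had 91.8, 301 and 260, so the spread without any surgery was wide too.

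**Figure D3:**
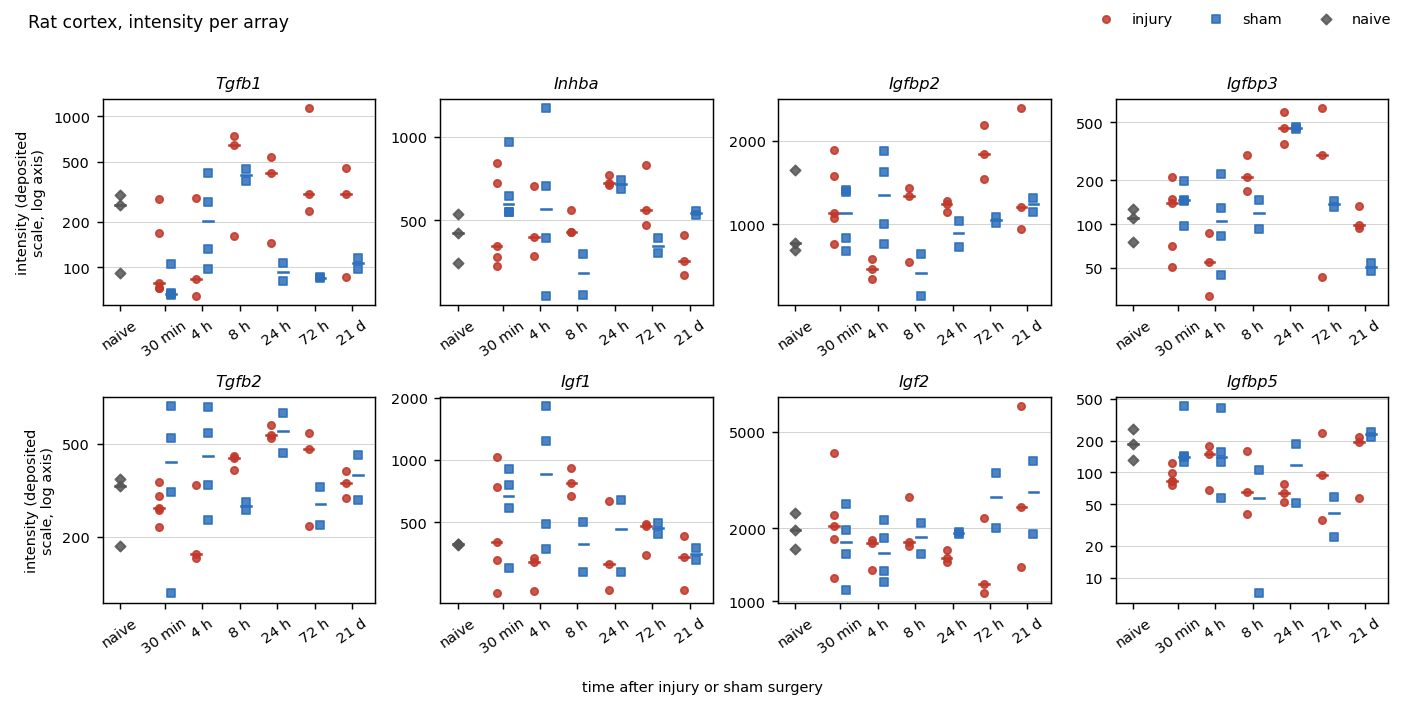
Deposited intensity of the 8 rat members (log axis) in naive cortex and from 30 min to 21 d after injury (circles, left) or sham surgery (squares, right). Each point is 1 array, without the floor, and each bar a group median. Tgfb1 lies above sham at 24 and 72 h, and Igfbp3 is high at 24 h in both groups.

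The rat Igfbp2 estimates at 72 h were above 0 on each of its 3 probe sets, and none was called. The representative read 1458, 1796 and 2274, against 1013 and 1058 in sham cortex, with every injury array above. The difference was 0.81 ± 0.39 (adjusted p = 0.314), and the other probe sets gave 1.15 ± 0.70 and, with overlapping groups, 0.66 ± 0.77. At 4 h the order was the opposite for this probe set: 687, 748 and 632 after injury, against 846, 1004, 1536 and 1838 after sham surgery (-0.86 ± 0.32, adjusted p = 0.0883), below sham as 6.33% of all genes were. The last pair are the 4 h arrays that stood apart, and the other probe sets were low there (76.1 and 138, and 78.5 and 197). The difference of the 72 h and 4 h effects was called for Igfbp2 (1.66 ± 0.50, adjusted p = 0.049987, 1 of 8 members against 2.81% of all genes called in that direction). The other probe sets gave 0.51 ± 0.91 and -0.54 ± 1.0. It was lost without the 4 arrays that stood apart (1.23, adjusted p = 0.166), with 9 of 10 alternatives in all, and on leaving out any of 9 of the 12 compared arrays, with estimates of 1.48 to 1.73.

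Rat Inhba did not separate by injury at 24 h, with 667, 679 and 728 after injury, against 648 and 699 after sham surgery. At 72 h it was 478, 794 and 543, against 429 and 380, a difference of 0.55 ± 0.43 (adjusted p = 0.614). At 4 h it was 663, 435 and 372, against 432, 266, 1269 and 664. Tgfb2 was 598, 528 and 542 at 24 h, against 674 and 455, and 221, 556 and 476 at 72 h, against 327 and 223. At 4 h Tgfb2 was 332, 162 and 169, against 331, 236, 554 and 717 (-1.01 ± 0.44, adjusted p = 0.128). The 2 highest values are the sham arrays that stood apart.

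Rat Igfbp3 was high at 24 h with or without injury: 458, 357 and 589 in injured cortex, against 454 and 466 in sham cortex and 75.4 to 127 in naive cortex. The difference from sham was 0.00 ± 0.71. At 72 h it was 43.2, 623 and 297, against 144 and 130, and the highest value is the array that resembles the 24 h arrays. At 21 d it was 93.9, 98.7 and 133, against 47.2 and 53.7, with every injury array above sham (1.09 ± 0.71, adjusted p = 1, and 9.83% of all genes above in this way). No rat Igfbp3 contrast with sham was called, but against all uninjured arrays as 1 group the 24 h difference was 1.88 (adjusted p = 0.0249), since the 24 h sham arrays then count among lower ones.

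The rat Igf1 probe sets disagreed. The representative read 346, 476 and 491 at 72 h after injury, against 438 and 493 after sham surgery (-0.10 ± 0.57). The probe set M15481_g_at read 746, 1338 and 1449, against 284 and 119, with no overlap. Tested as its own feature it was called at 72 h (2.62 ± 0.53, adjusted p = 0.00417, 1 of 19 member probe sets against 2.92% of all probe sets). The estimate was 1.99 to 3.25 with each of the 5 compared arrays left out, and the call was lost without sham 72 h replicate 2 (adjusted p = 0.189). Without the 4 arrays that stood apart its adjusted p was 9.31e-05.

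This Igf1 probe set was also high at 24 h in both groups, with 659, 653 and 594 after injury, against 698 and 710 after sham surgery. Between injury times it was higher at 24 h than at 8 h (2.15 ± 0.48, adjusted p = 0.00561) and lower at 21 d than at 72 h (-2.11 ± 0.48, adjusted p = 0.00732). In these contrasts 6.40% and 4.20% of all probe sets were called. The probe set X06107_i_at was higher at 24 h than at 8 h as well (2.83 ± 0.78, adjusted p = 0.0261). It read 1371, 1059 and 1089 at 24 h after injury, against 1368 and 1390 after sham surgery, and 1089 on injury 72 h replicate 2. Both groups are high at 24 h, where all arrays stand apart from the other times, and the part of that in these steps was not tested.

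At 4 h the representative Igf1 probe set was 232, 320 and 335 after injury, against 487, 371, 1231 and 1827 after sham surgery. The difference was -1.45 ± 0.48 (adjusted p = 0.0608). Without the 4 arrays that stood apart it was -0.54 (adjusted p = 0.744, every probe set as its own feature). Without sham replicate 1 or 2, which leaves the arrays that stood apart in the group, the 4 h difference passed for Igf1 (-1.69 and -1.82) and Igfbp2 (-1.04 and -0.96), and without sham replicate 2 for Tgfb2 (-1.28). At 8 h injured cortex had 773, 910 and 670, against 499 and 286, every injury array above sham, as for 19.5% of all genes. That difference was 1.04 ± 0.57 and was not called.

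**Figure D4:**
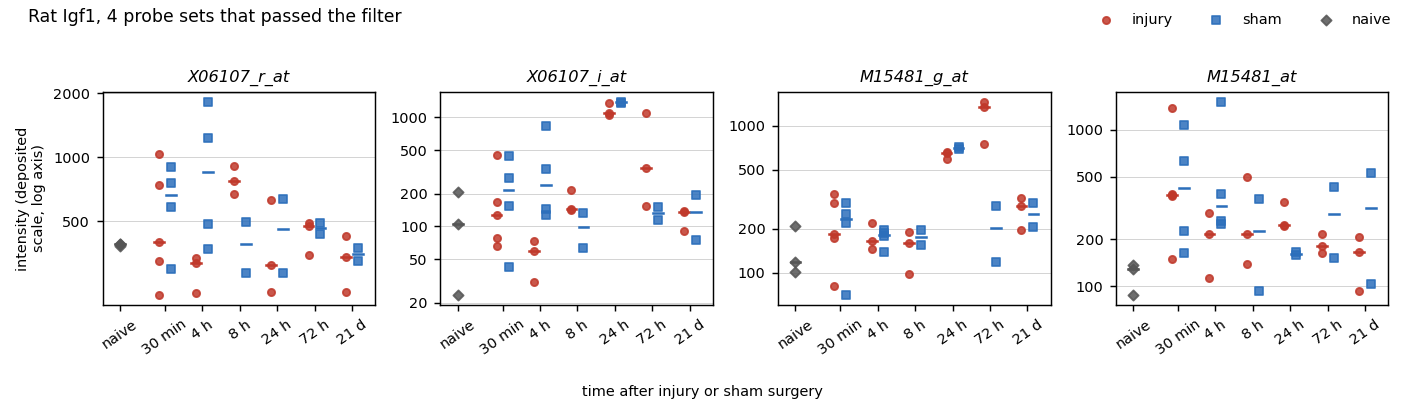
Deposited intensity (log axis) on the 4 rat Igf1 probe sets that passed the filter, by time, with injury arrays as circles (left), sham arrays as squares (right) and naive arrays as diamonds. Bars are group medians. On M15481_g_at the injury arrays lie above sham at 72 h, and on this probe set and X06107_i_at all 24 h arrays are high.

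Rat Igf2 and Igfbp5 showed no separation that passed the test. Igf2 was 2215, 1182 and 1079 at 72 h after injury, against 1997 and 3371 after sham surgery (-0.88 ± 0.46, adjusted p = 0.379). Other Igf2 probe sets did not show this lower level. Without the 4 arrays that stood apart, X16703_r_at gave 0.46, M17960_at 0.29 and M17960_g_at 0.02 at 72 h, none called, and the representative -0.88. E00988mRNA_s_at gave 0.44 to 0.99 with each compared array left out. The marker gene Ttr was 309 to 5592 at 72 h after injury, against 5429 to 32510 after sham surgery, and its bearing on Igf2 was not tested. The values that follow are those of the representative. At 21 d it was 1386, 6378 and 2442, against 1893 and 3777. Igfbp5 was 35.3, 236 and 93.6 at 72 h, against 24.3 and 58.6, and 215, 192 and 56.9 at 21 d, against 242 and 217. The standard error for Igfbp5 was 0.57 to 0.78 on the log2 scale, so changes of that size, and larger ones, could go uncalled.

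Between neighbouring injury times no rat member was called with 1 probe set per gene (0 of 8 in each of 5 contrasts). The shares of all genes called were 0.464%, 0.269%, 6.11%, 0.978% and 3.89% from the earliest contrast to the latest. At an unadjusted p below 0.05 limma gave 1, 4, 1, 0 and 1 members in the same order. Igfbp3 was lower at 21 d than at 72 h once injury 72 h replicate 1 was left out (-2.0, adjusted p = 0.0268). The effects at 72 h and 4 h differed by 3.11 ± 1.04 for Tgfb1 (adjusted p = 0.0744), which passed without injury 72 h replicate 1 (3.36, adjusted p = 0.0424) or injury 4 h replicate 1 (3.77, adjusted p = 0.0494). For Igfbp3 they differed by 1.46 ± 0.93, which passed without injury 72 h replicate 1 (2.57, adjusted p = 0.0312). Of 16 TGF-beta-induced genes on the rat array 2 rose and 2 fell at 4 h, 1 rose at 8 h, 1 at 24 h and 3 at 72 h, beside 4.99%, 0.709%, 0.269% and 2.76% of all genes called. Timp1 (2.53 ± 0.38 at 24 h, adjusted p = 0.000136) and Tagln (1.74 ± 0.43 at 72 h, adjusted p = 0.0226) rose in rat, as did the early response gene Junb (1.89 ± 0.50 at 4 h, adjusted p = 0.0356). The receptor gene Acvrl1 fell at 4 h (-1.16 ± 0.31, adjusted p = 0.0371). These 4 h list calls are taken against the sham group with the pair of arrays that stood apart, and were not counted without that pair. None of the 18 ligands and antagonists, 6 SMADs or 23 IGF genes was called in a rat injury contrast. Microglia and macrophage markers summed to 29023 to 46374 at 72 h in injured rat cortex, against 11858 to 12859 in sham cortex, and 6 of 11 rose. Endothelial and pericyte markers summed to 6506 to 8470, against 5477 to 5909. Neuron markers were lower at 72 h (14683 to 26532, against 39202 to 40096), as were oligodendrocyte markers (26209 to 36662, against 45457 to 47250). The part of these cell types in the rat members' differences was not tested. The mouse and rat designs differ in species, injury, sampled disk and array, so their effects are set side by side and no test of the difference was made.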

How the data were processed

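Groups were read from the sample labels, and members and gene lists were chosen with earlier results of these data known. The authors deposited 1 linear intensity per probe set and array, and the values show a common scale (trimmed mean 800.3 to 801.2). The software and settings that made these deposited intensities are not given in the sources used here, and no detection call was used. Control probe sets and those with several or no gene symbols were left out. Intensities were floored at the pooled 10th percentile and taken as log2. To be tested, a probe set had to exceed the pooled 40th percentile on 3 arrays or more (193 for mouse arrays, 202 for rat arrays), and the one with the highest mean stood for its gene (6355 mouse and 4091 rat genes). limma 3.58.1 (R 4.3.3) was run once per species with group means as coefficients and moderated variances with a mean trend (13 and 26 residual degrees of freedom). Injury was set against sham of the same time, sham as a whole against naive, each injury time against the one before it, and the 72 h effect against the 4 h effect. p-values were adjusted by Benjamini-Hochberg in each contrast over all genes, and called below 0.05. The number of arrays limits the precision. The fit was tested on simulated data.

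The text names by rule every member, up to 3 called genes per pathway list and species by smallest adjusted p, and the 3 genes most like each called mouse member. Probe sets other than the representative are given for mouse Igfbp3 and for some rat members, and not all of them are printed. The fits were repeated with quantile normalization, with a higher floor (25th percentile), unfiltered, without the trend, and with probe sets averaged or kept apart. They were also repeated with the title letter or number as a block, with the compared groups alone, with all uninjured arrays pooled, with averaged mouse sham arrays, and with each array left out. Rat fits without the 4 arrays that stood apart were among them. Comparisons of each sham time with naive cortex, and of single rat probe sets with arrays left out, were chosen after the data were seen. Where 1 sham sample remained, it was assumed to vary like the other groups. Promoter sequences are from RefSeq (GRCr8), and all 4 named genes matched by symbol. Plots use matplotlib 3.10.9 (Python 3.11.15).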

Additional observations from a re-analysis of the deposited data

Results flagged for a closer look

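In the rat sham group at 30 min, 1 array lay far from the other 3 for Igfbp5 (425 on replicate 3, against 126, 140 and 142) and for Tgfb1 (105 on replicate 4, against 65.5 to 67.4). Replicate 3 is one of the arrays with a low correlation to the rest. These were 2 of 24 combinations of gene and group tested, and chance alone gives about 1 in 20.

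The injury effect differed between 72 h and 4 h by an interaction test for mouse Tgfb1 (log2 4.18), Igfbp3 (2.47) and Igfbp2 (2.10). The mouse 4 h sham arrays in this test are those rich in pituitary markers. In rat it did so for Igfbp2 (1.66), where the 4 h sham group holds a pair of arrays that stood apart.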

How the results depend on the processing

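Of 2874 single-gene values recomputed under an alternative, 77 changed their side of the threshold and 1 of these reversed: rat Igfbp3 at 24 h, at 0.00 against its own sham, was 1.88 against all uninjured arrays. The count of member calls in mouse against sham was 7. It became 4 with averaged sham arrays and 5 with only the compared groups (without Inhba and Tgfb1 at 24 h). It became 6 with no filter, no trend or the title letter as a block (each without Inhba at 72 h), 8 with probe sets averaged or all uninjured arrays as 1 group (each with Igfbp3 at 8 h), and 10 with every probe set as its own feature. Between neighbouring mouse injury times it was 3, and became 1 with the title letter as a block or with only the compared groups. For the mouse difference of 72 h and 4 h effects it was 3, and became 0 with the title letter as a block or averaged sham arrays. In rat against sham the count was 0, and became 1 with every probe set as its own feature, with all uninjured arrays as 1 group, or without the 4 arrays that stood apart. Between neighbouring rat times it was 0, and became 3 with every probe set as its own feature, 4 with only the compared groups and 2 without the 4 arrays. The rat difference of effects, 1 call, became 2 with every probe set as its own feature. It became 0 with quantile normalization, no filter, no trend, the title letter as a block, only the compared groups, or without the 4 arrays.

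Leaving out each array in turn gave 6 to 8 member calls in mouse against sham, 1 to 5 between mouse times, 2 to 3 for the mouse difference of effects, 0 to 3 in rat against sham, 0 to 1 between rat times and 0 to 3 for the rat difference. Sham against naive stayed at 0 in both species under every alternative run. Mouse injury and sham titles share too few numbers to pair. In rat, same-numbered deviations correlated at 0.36, 0.25, -0.41 and 0.36 at 30 min, where differently numbered ones ran from -0.46 to 0.62. At 4 h they correlated at -0.19, 0.21 and -0.03, against -0.24 to 0.24. From 8 h on, the deviations of the 2 sham arrays of a group mirror each other. The values there (-0.11 to 0.09) therefore cannot show pairing, and whether the numbers pair the arrays was not settled. With the rat title number as a replicate block the counts were 0 against sham, 0 between times and 0 for the difference of effects, where Igfbp2 had 1.59 (adjusted p = 0.0745). Low intensities near the floor, such as uninjured mouse Tgfb1, limit how well the size of a fold is known.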
